A study of Bos taurus with 6 samples.

Results

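The genes that build and anchor the extracellular matrix were followed in bovine cumulus cells, the layers of somatic cells attached to the oocyte within its follicle. They comprised the collagen chains, the laminin chains, the integrin alpha and beta subunits, the proteoglycans LUM, DCN, BGN and HSPG2, and the matrix glycoproteins FN1, SPARC, FBN1, POSTN and NID1. Members were chosen by their symbol in the platform annotation, with earlier results of these data known. No measured value entered the rule itself. It gave 76 genes on 87 probes among 15229 genes with a symbol on the array. Signal exceeded background for 67 of these probes, from 60 genes, and only these were tested.

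Collagens are trimers of alpha chains that form fibrils, sheets or filaments outside the cell, and their chains are encoded by separate genes. Laminins are trimers of an alpha, a beta and a gamma chain, and with type IV collagen, nidogen and the proteoglycan perlecan they make up basement membranes such as the one under the follicle's granulosa layer. Integrins are receptors of 1 alpha and 1 beta subunit that bind these proteins and link them through focal adhesion proteins to the actin cytoskeleton, while small proteoglycans such as lumican and decorin bind collagen fibrils.

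Cumulus-oocyte complexes from slaughterhouse ovaries of Holstein cows were matured in a medium with serum and estradiol that both conditions shared. The FID condition differed by the addition of forskolin at 100 µM, which activates adenylyl cyclase, and of IBMX at 500 µM and dipyridamole at 50 µM, which inhibit phosphodiesterases. Control samples are named with 6 h, whereas the protocol describes a culture of 22 to 24 h in both conditions, so the culture time behind the comparison is not settled. FID and control RNA, amplified by T7 transcription from complexes cultured in small groups, were hybridised together on 6 Agilent 2-colour arrays, as 3 biological replicates numbered 1, 2 and 4 with a dye swap each. The question that the comparison addresses is which transcripts differ in cumulus cells exposed to agents that raise cyclic AMP.

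Median raw intensities per array were 173 to 294 units in FID and 143 to 255 in control, and no spot of a matrix or integrin probe was saturated. Values below are normalised intensities in FID and in control, each the mean of both arrays of a replicate, and log2 ratios of FID over control with limma's standard error (SE, n = 3 replicates). Adjusted p-values are limma's after Benjamini-Hochberg adjustment over all 32124 tested probes, with a threshold of 0.05. They rest on the spread between the 3 replicates, which limma moderates with a variance estimated over all tested probes (prior df 1.85, residual df 2). The number of replicates limits the precision. Levels of different genes come from different probes and are not set against each other.

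Granulosa and cumulus markers summed to 161638 to 180078 units in FID and 188580 to 209115 in control over 16 tested genes. These sums are lower bounds where spots were saturated, as for INHA, the inhibin alpha subunit, on 2 arrays in FID, and they also hold saturated spots of INHBA and SERPINE2. The median ratio of the 16 was -0.41, with 6 positive and 10 negative, and 0 passed. In absolute size 7 of them (43.8%) exceeded 1, against 9.63% of all genes. The largest were KRT8 at -2.36 ± 0.29, KRT18 at -1.76 ± 0.39 and AMH at 1.71 ± 0.24 (adjusted p = 0.0545, 0.107 and 0.0602). Sums of different lists rest on different probes and numbers of genes and are compared only between conditions. The 12 tested stroma, theca and smooth muscle markers summed to 12674 to 15199 units in FID and 22704 to 31559 in control, and 2 of them fell in FID, namely TCF21 with a log2 ratio of -2.17 ± 0.16 and PDGFRA with -2.09 ± 0.14 (adjusted p = 0.0476 for both). The median ratio of the 12 was -0.18, and the other 10 did not pass, among them MYH11 at 1.03 ± 0.46, ACTA2 and CNN1 at -1.06, and DPT, CYP17A1, DES and PI16 at 0.01, -0.03, -0.06 and -0.08. ACTA2, a smooth muscle actin, made up much of the sum, with 8783, 7233 and 11048 units in FID and 23228, 20728 and 13195 in control (adjusted p = 0.151). CD34, PDGFRB and TAGLN were not above background on enough arrays to be tested. The 6 endothelial markers summed to 883 to 1107 units in FID and 823 to 1013 in control, and the 7 blood and immune markers to 2219 to 4770 and 1768 to 3005 units. The 13 oocyte markers summed to 16817, 45571 and 1943 units in FID in replicates 1, 2 and 4, and to 6145, 3359 and 1701 in control. In such mixed material, fewer cells of a type and less RNA per cell cannot be told apart, and the part of these other cells in the results below was not tested.

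Of the 60 tested genes, 0 rose and 1 fell in FID, lumican (1.67%), while of all 12363 tested genes 2.36% changed, 1.07% upwards and 1.29% downwards. Their log2 ratios ran from -1.49 to 1.76 with a median of 0.07, beside a median of 0.01 over all genes. The median absolute ratio was 0.30 among them and 0.23 among all genes, and 9 of the 60 (15.0%) exceeded 1 in absolute size, against 9.63% of all genes. An unadjusted p under 0.05 was reached by 18 of the 60 (30.0%) and by 28.6% of all genes. A second limma fit kept the 6 arrays apart and held a term for the dye, with replicates entered as random blocks. It called 7 members higher (11.7%) and 6 lower (10.0%), where the background was 8.84% higher and 11.9% lower. That fit counts both arrays of a dye swap towards its degrees of freedom although the biological replicates remain 3, so its adjusted p, given below as that of the block fit, is an alternative and no separate evidence.

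**Figure D1:**
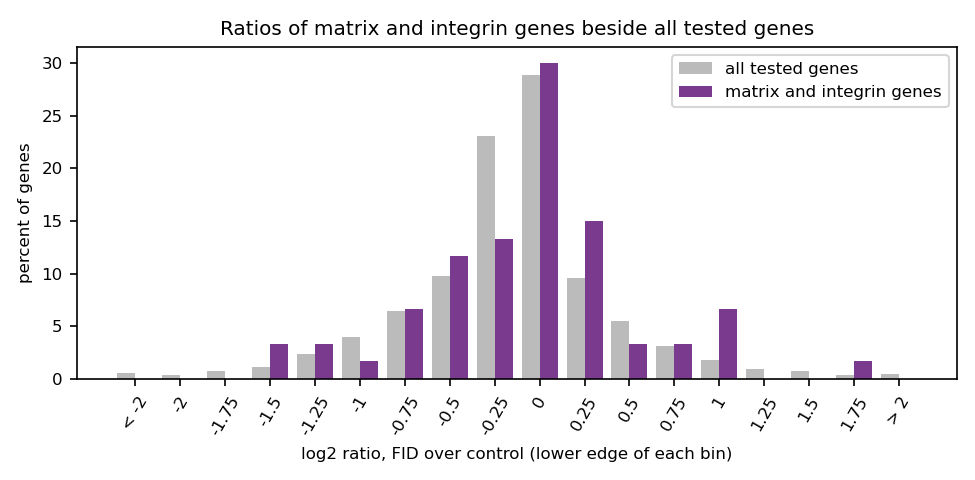
Share of genes (percent, vertical axis) in bins of the log2 ratio of FID over control (horizontal axis, lower edge of each bin), for the 60 tested matrix and integrin genes and for all 12363 tested genes. Among matrix and integrin genes 43.3% lay within 0.25 of 0, against 51.9% of all genes.

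Lumican (LUM), a small leucine-rich proteoglycan that binds collagen fibrils and regulates their spacing, was the only member past the threshold. Its level was 1001, 611 and 1531 units in FID in replicates 1, 2 and 4, and 2406, 2145 and 4038 in control. Every FID value lay below every control value, and FID was lower on 6 of 6 arrays. The log2 ratios of the replicates were -1.26, -1.81 and -1.40, with a mean of -1.49 ± 0.14 (95% interval -1.90 to -1.09), a level 2.81-fold lower in FID (adjusted p = 0.0491, limma). This p lies close to the threshold, and over 18 alternative settings the ratio stayed between -1.75 and -1.30 while the call held in 11 of them, including Aquantile scaling between arrays, which leaves the ratios as they are by construction. Leaving out any 1 replicate ended the call for LUM, with adjusted p of 0.116 to 0.249 and ratios of -1.60 to -1.33. Each of these fits called 0 of the 32124 tested probes, marker list genes included, so the loss is not particular to LUM. Of the 12 stromal markers, PDGFRA and TCF21 fell as well, with replicate ratios of -1.79, -2.18 and -2.31 and of -1.82, -2.49 and -2.20, while the list's median was -0.18 and its highest member, MYH11, lay at 1.03.

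Decorin (DCN), the neighbour of LUM in the RefSeq gene table and a proteoglycan of the same family, measured 100, 107 and 143 units in FID and 150, 188 and 191 in control. It exceeded background in FID on 3 of 6 arrays, and its mean ratio of -0.60 ± 0.12 did not pass (adjusted p = 0.0880, block fit adjusted p = 0.0463). The ratio depended on the dye. On the 3 arrays with FID in Cy3 it was -1.45, -1.74 and -0.99, whereas on the 3 arrays with FID in Cy5 it was 0.30, 0.11 and 0.15, so the dye orientations pointed in opposite directions in all replicates. Biglycan (BGN), the remaining small proteoglycan of the group, had a ratio of 0.02 ± 0.12 (adjusted p = 0.943).

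Perlecan (HSPG2), the large heparan sulfate proteoglycan of basement membranes, measured 3483, 8193 and 3557 units in FID and 11845, 4280 and 4377 in control. The replicates disagreed in sign, with ratios of -1.77, 0.94 and -0.30 and a mean of -0.38 ± 0.57 (adjusted p = 0.783). The SD of 1.35 between replicates was larger than for any other tested member. Replicate 2 was also the only one with a positive ratio for ITGA7 and ITGB6, described with the integrins. The oocyte markers had their highest median ratio in replicate 2, with 1.22, 3.28 and 0.13 in replicates 1, 2 and 4. In replicate 1 their median was positive too, whereas HSPG2, ITGA7 and ITGB6 were negative there. The stromal median was -0.20, -0.17 and -0.26, and the endothelial median 0.00, 0.19 and 0.13. The blood and immune median was 0.28, 0.30 and 0.28, and the granulosa and cumulus median -0.27, -0.61 and -0.20. Several lists held markers with the signs of HSPG2, ITGA7 and ITGB6, beside others without them. Among these were DES (-0.62, 0.77 and -0.34), PTPRC (-0.16, 1.32 and -0.30) and H1FOO (-0.53, 1.24 and -0.37). The pattern in replicate 2 is a description over 3 values, and its source was not tested.

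All 9 basement membrane collagens with a probe were tested, and 0 passed. Their median ratio was 0.21, with 0.05, 0.20 and 0.48 in replicates 1, 2 and 4. Ratios of the type IV chains, which form the sheet of the basement membrane, spread over nearly the whole range seen among the members, from COL4A1 at the top to COL4A5 near the bottom.

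COL4A1, a chain of the ubiquitous type IV collagen trimer, measured 9836, 11426 and 17595 units in FID and 5314, 4474 and 2126 in control. FID lay above control without overlap and on 6 of 6 arrays, but the replicate ratios of 0.89, 1.35 and 3.05 were far apart. The mean of 1.76 ± 0.48 therefore did not pass (adjusted p = 0.142, block fit adjusted p = 0.0138). COL4A2, whose product joins COL4A1 in that trimer and whose gene lies next to it in the RefSeq gene table, measured 642, 565 and 259 units in FID and 656, 675 and 336 in control. Its ratios of -0.03, -0.26 and -0.37 were on the other side of 0 in every replicate (mean -0.22 ± 0.11, adjusted p = 0.339). The difference between these chains was not tested.

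COL4A3 and COL4A4, neighbouring genes whose products form a trimer with the COL4A5 chain, are known best from the kidney. COL4A3 measured 1401, 628 and 1081 units in FID and 580, 392 and 338 in control, without overlap and higher in FID on 6 of 6 arrays. Its ratios of 1.27, 0.68 and 1.68 gave a mean of 1.21 ± 0.22 (adjusted p = 0.0835, block fit adjusted p = 0.00502). COL4A4 split by replicate, with 0.43, -0.58 and 1.06 and a mean of 0.30 ± 0.35 (adjusted p = 0.706).

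COL4A5 measured 489, 212 and 324 units in FID and 816, 429 and 1336 in control. FID was lower on 6 of 6 arrays, although the levels of the conditions overlapped between replicates, and the ratios were -0.74, -1.02 and -2.05. The mean of -1.27 ± 0.30 did not pass (adjusted p = 0.113, block fit adjusted p = 0.0108). A second, dimmer probe of COL4A5, above background in FID on 1 of 6 arrays, gave -0.75 ± 0.18 (adjusted p = 0.116). COL4A6, the neighbour of COL4A5 in the gene table, had a ratio of -0.07 ± 0.10 (adjusted p = 0.766).

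The other basement membrane collagens were COL18A1, the precursor of endostatin, with 0.48 ± 0.11 and the same sign on 6 of 6 arrays (adjusted p = 0.104, block fit adjusted p = 0.0415), COL15A1 with 0.21 ± 0.15 and COL7A1, the anchoring fibril collagen, with 0.10 ± 0.09. Neither COL15A1 nor COL7A1 was called in either fit.

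**Figure D2:**
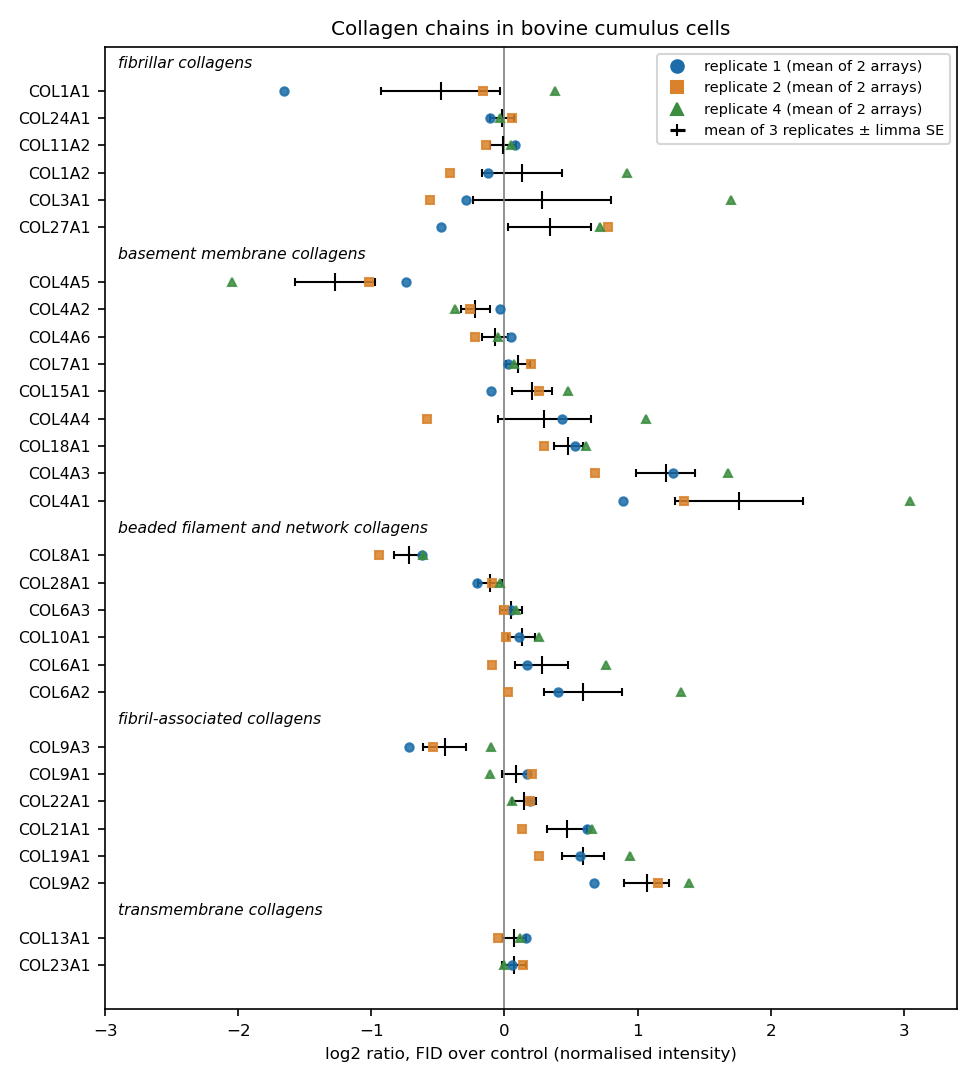
Log2 ratio of FID over control in normalised intensity (horizontal axis) for each tested collagen chain (vertical axis), ordered by class. Symbols are the 3 replicates, each the mean of 2 dye swap arrays, and the black marks are the mean with limma's SE; COL4A1 at 1.76 and COL4A5 at -1.27 mark the ends of the range, and in COL1A1 and COL3A1 replicates lie on opposite sides of 0.

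Fibrillar collagens give connective tissue its tensile strength and are made mainly by fibroblasts and other stromal cells. Of 9 with a probe, 6 were tested and 0 passed, with a median ratio of 0.06 and replicate medians of -0.21, -0.15 and 0.55. COL1A1, a chain of type I collagen, measured 332, 307 and 382 units in FID and 1051, 341 and 293 in control. The high control value of replicate 1 set the mean of -0.48 ± 0.45 (adjusted p = 0.620), and the replicate ratios were -1.66, -0.16 and 0.38.

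COL1A2, its partner chain, was dim, above background on 4 arrays in FID and 3 in control, and its ratios were -0.12, -0.41 and 0.92. COL3A1, the type III chain, measured 107, 175 and 503 units in FID and 131, 257 and 154 in control. Its ratios were -0.29, -0.56 and 1.70, with a mean of 0.28 ± 0.52 (adjusted p = 0.826). In all 3 of these genes replicate 4 was higher in FID while replicates 1 and 2 were lower. COL27A1 followed another order, with -0.48, 0.78 and 0.72 and a mean of 0.34 ± 0.31 (adjusted p = 0.606). Its mean was 0.82 over the arrays with FID in Cy5 and -0.14 over those with FID in Cy3. The remaining COL11A2 and COL24A1 lay at -0.01 and -0.02.

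Replicate 4 stood against the other replicates in 14 of the 60 members (23.3%), beside 17.7% of all genes. The 14 were COL1A1, COL1A2, COL3A1, COL9A1, COL23A1, FN1, ITGA3, ITGB1, ITGB4, LAMA1, LAMB1, LAMC1, NID1 and SPARC. Replicate 2 had the odd sign in 11 (18.3%, against 16.0%) and replicate 1 in 6 (10.0%, against 16.4%), while 29 (48.3%, against 49.9%) kept 1 sign. The median SD between replicates was 0.33 among members and 0.26 among all genes, and it exceeded 1 in 6 of the 60 (10.0%, against 3.63%): HSPG2, ITGA7, COL3A1, COL4A1, COL1A1 and LAMB1. Nothing in the labels sets replicate 4 apart from the others. Its oocyte markers had the lowest sums of the 3 replicates, with 1943 units in FID and 1701 in control. Whether this goes with the signs was not tested.

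Network-forming and beaded filament collagens include type VI collagen, which makes microfilaments around cells, and the short-chain type VIII collagen. Of 8 with a probe, 6 were tested, 0 passed and the median ratio was 0.09. COL8A1 measured 143, 151 and 121 units in FID and 220, 291 and 186 in control, without overlap and lower in FID on 6 of 6 arrays. Its mean of -0.72 ± 0.11 fell short of the threshold (adjusted p = 0.0695, block fit adjusted p = 0.00750), and it exceeded background in FID on 3 of 6 arrays, so the size of the ratio is compressed. COL6A2 had ratios of 0.40, 0.03 and 1.33 (mean 0.59 ± 0.29, adjusted p = 0.336) and its neighbour COL6A1 0.17, -0.09 and 0.76 (mean 0.28 ± 0.20, adjusted p = 0.499). In both type VI chains the highest ratio was that of replicate 4 and the lowest that of replicate 2. COL6A3, COL10A1 and COL28A1 lay between -0.11 and 0.13.

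Fibril-associated collagens sit on the surface of fibrils and connect them to their surroundings. Of 9 with a probe, 6 were tested, 0 passed and the median ratio was 0.31. COL9A2, a chain of type IX collagen, measured 1315, 1252 and 1091 units in FID and 827, 562 and 416 in control, without overlap and higher on 6 of 6 arrays. Its ratios of 0.67, 1.15 and 1.39 gave 1.07 ± 0.17 (adjusted p = 0.0717, block fit adjusted p = 0.00437). The mean was 1.60 over the arrays with FID in Cy5 and 0.55 over those with FID in Cy3, higher in both.

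The partners of COL9A2 in the type IX trimer did not pass either, and differences between the chains were not tested. COL9A3 was lower in 5 of 6 arrays at -0.45 ± 0.16 (adjusted p = 0.204), with FID above background on 3 arrays. Its mean was -0.05 over the arrays with FID in Cy5 and -0.85 over those with FID in Cy3. COL9A1 lay at 0.09 ± 0.11 on its brightest probe and at -0.04 and -0.12 on its other tested probes. COL19A1 reached 0.59 ± 0.16 (adjusted p = 0.146, block fit adjusted p = 0.0588) and was higher on 6 of 6 arrays. COL21A1, measured at 4452, 2233 and 4063 units in FID and 2895, 2046 and 2566 in control, reached 0.47 ± 0.15 (adjusted p = 0.178, block fit adjusted p = 0.0577). With FID in Cy5 the means of COL19A1 and COL21A1 were 0.22 and 0.17, and with FID in Cy3 they were 0.96 and 0.77. COL22A1 lay at 0.15 ± 0.09. The transmembrane collagens COL13A1 and COL23A1 both had a mean ratio of 0.07 ± 0.09, and in both the sign turned with the dye.

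Laminin chains had the lowest median ratio of the role groups, at -0.53, next to -0.49 for the 4 proteoglycans, but their replicate medians were -0.90, -0.49 and 0.16. Of 8 with a probe, 6 were tested and 0 passed. LAMA1, LAMB1 and LAMC1 encode the chains of laminin-111, and all of them were lower in FID in replicates 1 and 2 and at or above control in replicate 4 on their brightest probes.

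LAMA1 measured 9816, 6970 and 16270 units in FID and 25057, 15434 and 12966 in control. Its ratios were -1.35, -1.15 and 0.33, with a mean of -0.72 ± 0.39 (adjusted p = 0.374). LAMB1 measured 141, 211 and 337 units in FID and 393, 738 and 305 in control, with ratios of -1.48, -1.80 and 0.14 (mean -1.05 ± 0.44, adjusted p = 0.274). The LAMC1 probe of highest intensity had -0.98, -0.20 and 0.17 (mean -0.33 ± 0.26, adjusted p = 0.533), and its other probes gave means of -0.69 ± 0.37 and -0.57 ± 0.22. With replicate 4 on the other side of 0, none of the 3 chains differed beyond the spread between replicates.

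LAMB2 can take the place of LAMB1 in other laminin trimers. It measured 652, 796 and 1174 units in FID and 485, 377 and 320 in control, without overlap and higher on 6 of 6 arrays. Its ratios of 0.43, 1.08 and 1.87 gave 1.13 ± 0.31 (adjusted p = 0.146, block fit adjusted p = 0.0252). LAMA5, which can take the place of LAMA1, measured 182, 216 and 167 units in FID and 320, 371 and 259 in control, without overlap and lower on 6 of 6 arrays. Its ratios were -0.81, -0.78 and -0.63, and the mean of -0.74 ± 0.09 lay just outside the threshold (adjusted p = 0.0550, block fit adjusted p = 0.00922). LAMB3, a chain of epithelial laminin-332, lay at 0.02 ± 0.08.

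**Figure D3:**
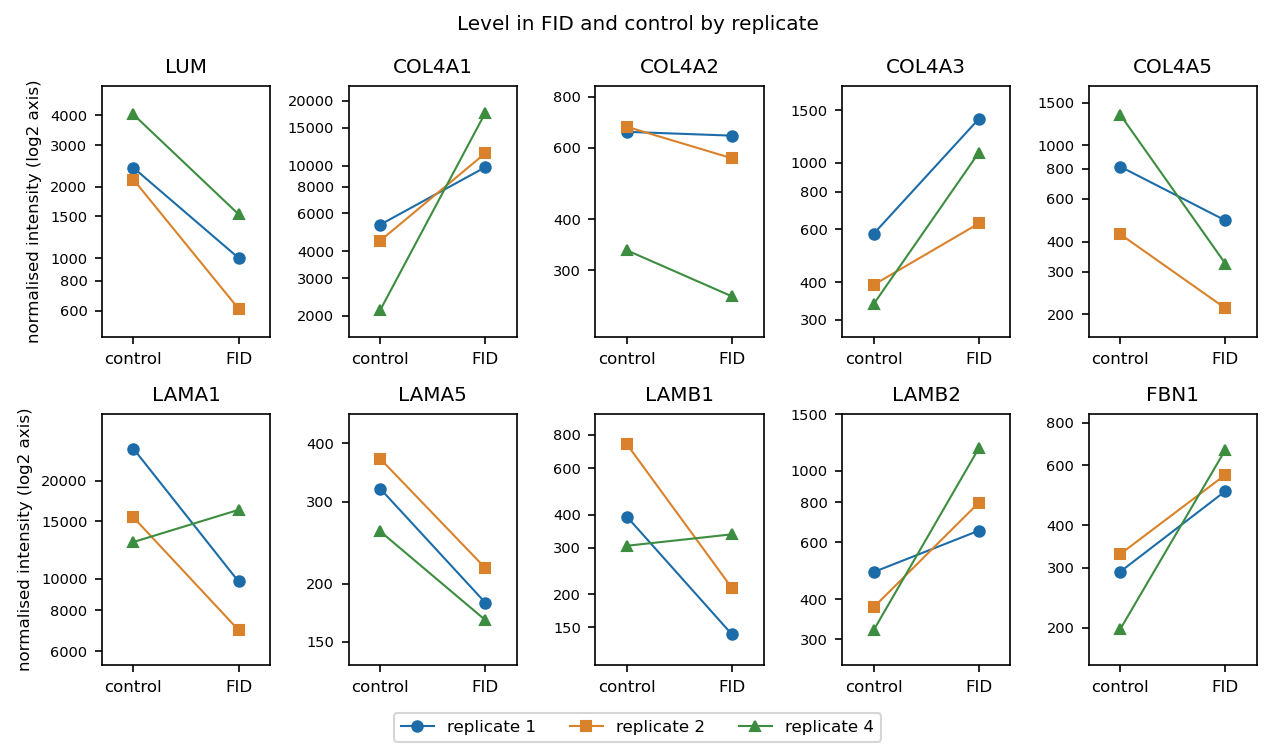
Normalised intensity on a log2 axis (vertical) in control and FID (horizontal) for 10 genes, with 1 line per replicate and a separate scale per gene. LUM, COL4A5 and LAMA5 were lower in FID in all 3 replicates, COL4A1, COL4A3, LAMB2 and FBN1 higher, and in LAMA1 and LAMB1 replicate 4 ran against the others.

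Integrin alpha subunits set which ligand the receptor binds. Of 12 with a probe, 10 were tested, 0 passed and the median ratio was 0.09. ITGA6, the alpha subunit of laminin-binding receptors, measured 996, 608 and 1144 units in FID and 436 in control in replicates 2 and 4. Its control level of replicate 1 was higher than these but below every FID value, and FID was higher on 6 of 6 arrays. Its ratios of 0.90, 0.48 and 1.39 gave 0.93 ± 0.21 (adjusted p = 0.106, block fit adjusted p = 0.0182). ITGA10, a collagen-binding subunit, was higher on 6 of 6 arrays with 0.30, 0.36 and 1.64, a mean of 0.77 ± 0.33 (adjusted p = 0.277).

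ITGAV and ITGA5, which bind the RGD motif of fibronectin and related ligands, had negative ratios. ITGAV measured 229, 164 and 185 units in FID and 270, 431 and 493 in control, without overlap. It was lower in FID on 5 of 6 arrays, the exception being replicate 1 with FID in Cy5 at 0.11. Its ratios of -0.24, -1.39 and -1.42 gave -1.02 ± 0.29 (adjusted p = 0.153, block fit adjusted p = 0.0238). ITGA5, the fibronectin receptor subunit, measured 111, 136 and 120 units in FID and 254, 262 and 135 in control, and was lower on 6 of 6 arrays. Its mean of -0.77 ± 0.24 did not pass (adjusted p = 0.172, block fit adjusted p = 0.0513), and in FID only 3 of 6 arrays had it above background.

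ITGA7, a laminin receptor subunit known from muscle, measured 2130, 7492 and 3355 units in FID and 3869, 2440 and 3735 in control, with ratios of -0.86, 1.62 and -0.15 (mean 0.20 ± 0.54, adjusted p = 0.888). ITGA2, a collagen receptor subunit, measured 4186, 4237 and 3485 units in FID and 4076, 5831 and 2249 in control, with a mean of 0.07 ± 0.24 (adjusted p = 0.917). ITGA1, ITGA3, ITGA8 and ITGA11 lay between 0.01 and 0.15.

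Integrin beta subunits carry the link to the cytoskeleton. Of 8 with a probe, 6 were tested, 0 passed in either fit and the median ratio was -0.10. ITGB1, the partner of most of the alpha subunits above, measured 413, 377 and 408 units in FID and 556, 540 and 397 in control, with ratios of -0.43, -0.52 and 0.04 (mean -0.30 ± 0.15, adjusted p = 0.334). ITGB5, a partner of ITGAV, had -0.06, 0.33 and 1.09 (mean 0.45 ± 0.26, adjusted p = 0.398), and ITGB6, another partner of ITGAV, -0.94, 0.72 and -0.35 (mean -0.19 ± 0.36, adjusted p = 0.833). ITGB8 exceeded background on 0 of 6 arrays in FID and on 5 of 6 in control. Its ratios of -0.15, -0.50 and -0.84 gave -0.50 ± 0.16 (95% interval -0.96 to -0.03, adjusted p = 0.191). Its mean control level was 1.36-fold the lowest signal above background, or its own FID signal where that was higher. That fold is a point value without an error between replicates. ITGB3 and ITGB4 lay at 0.25 and -0.01.

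Of the 5 matrix glycoproteins, all were tested and 0 passed, with a median ratio of 0.15. Fibrillin-1 (FBN1), the backbone of microfibrils that also hold latent TGF-beta complexes, measured 504, 563 and 667 units in FID and 292, 329 and 198 in control. FID lay above control without overlap and on 6 of 6 arrays, with ratios of 0.79, 0.78 and 1.75 and a mean of 1.11 ± 0.25 (adjusted p = 0.106, block fit adjusted p = 0.0101). SPARC, a secreted collagen-binding protein, measured 2550, 2531 and 3737 units in FID and 3253, 4999 and 3450 in control (mean -0.41 ± 0.24, adjusted p = 0.422).

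Fibronectin (FN1) measured 358, 436 and 424 units in FID and 366, 453 and 291 in control, with a mean ratio of 0.15 ± 0.16 (adjusted p = 0.681). Its levels overlapped fully between the conditions. Periostin (POSTN) had ratios of 0.47, -0.27 and 1.09 (mean 0.43 ± 0.30, adjusted p = 0.485). Nidogen-1 (NID1), which joins laminin to type IV collagen, was above background in FID on 2 of 6 arrays and lay at -0.12 ± 0.10 (adjusted p = 0.600).

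**Figure D4:**
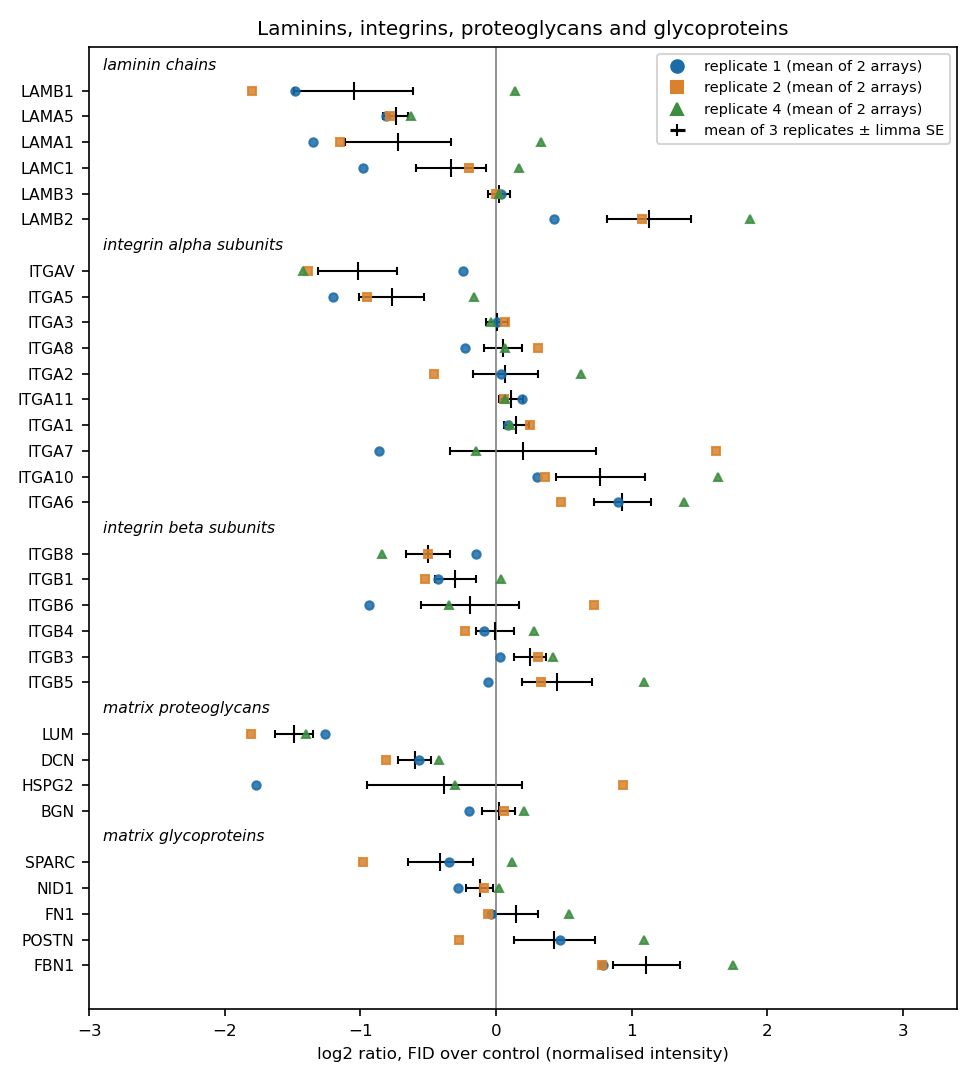
Log2 ratio of FID over control in normalised intensity (horizontal axis) for each tested laminin chain, integrin subunit, proteoglycan and glycoprotein (vertical axis). Symbols are the 3 replicates, each the mean of 2 dye swap arrays, and the black marks the mean with limma's SE; LUM at -1.49 has replicates close together, while HSPG2 and ITGA7 have replicate 2 to the right and replicate 1 to the left.

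The 16 genes that were not tested were COL2A1, COL5A3, COL6A6, COL8A2, COL11A1, COL12A1, COL16A1, COL17A1, COL20A1, COL25A1, ITGA4, ITGA9, ITGB2, ITGB7, LAMA4 and LAMC3. ITGB2 and ITGA4, integrin subunits of white blood cells, exceeded background on 0 of 6 arrays in both conditions, as did LAMC3. Levels of the untested genes lay between 70.4 and 261 units. The widest spread was that of COL12A1, with ratios of -0.59, -1.88 and 0.29, above background on 2 arrays in FID and 3 in control.

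Dye mattered for several members. In the second fit 17 of the 60 had a dye term with an adjusted p under 0.05 (28.3%), against 19.6% of all genes. In 7 of the 60 (11.7%), against 10.5% of all genes, all 3 arrays with FID in Cy5 pointed one way and all 3 with FID in Cy3 the other. These were COL4A6, COL6A3, COL9A1, COL13A1, COL23A1, LAMB3 and DCN. For 6 of them the mean of both orientations was between -0.07 and 0.09, and DCN was the exception at -0.60.

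**Figure D5:**
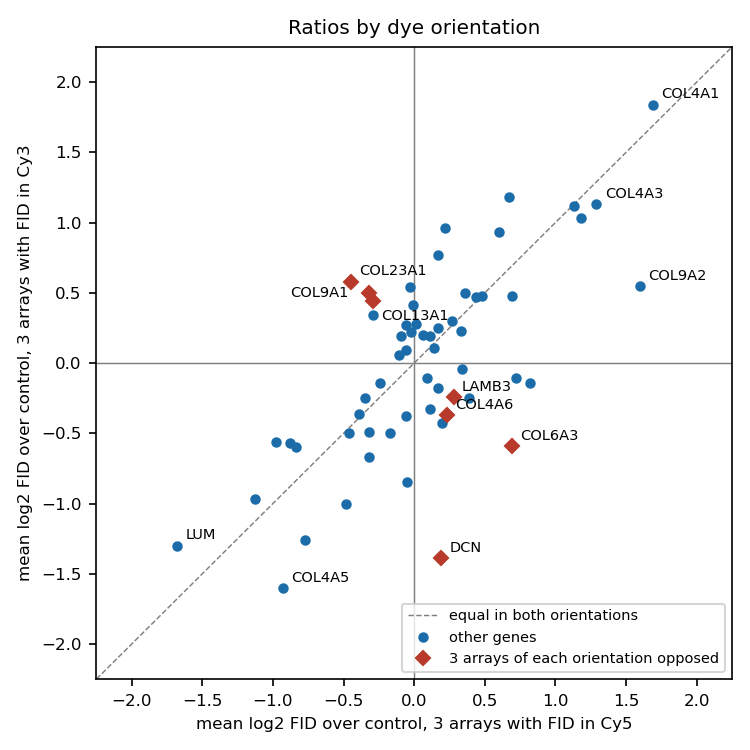
Mean log2 ratio of FID over control over the 3 arrays with FID in Cy5 (horizontal axis) against the mean over the 3 arrays with FID in Cy3 (vertical axis), 1 point per tested gene. LUM, COL4A1, COL4A3, COL4A5 and COL9A2 keep their sign in both orientations. In the 7 genes drawn as diamonds all 3 arrays of each orientation opposed those of the other. The means of further genes, such as BGN and NID1, also change sign.

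Genes around these members were taken from lists of known function. Of 24 tested genes of collagen processing and cross-linking, 0 passed, 12 had a positive and 12 a negative ratio, and the median was -0.02. The largest was LOXL4, a lysyl oxidase that cross-links collagen, with 153, 309 and 791 units in FID and 1179, 2057 and 1428 in control. Its ratios of -2.95, -2.74 and -0.85 gave -2.18 ± 0.49 (adjusted p = 0.106, block fit adjusted p = 0.00641). PLOD1, a lysyl hydroxylase, lay at 0.97 ± 0.40 and LOXL3 at 0.72 ± 0.41 (adjusted p = 0.271 and 0.402).

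Of 20 tested focal adhesion partners of integrins, 0 passed, 5 were positive and 15 negative, and the median was -0.19. The largest were ACTN1, an alpha-actinin, at -0.73 ± 0.23, VCL, vinculin, at -0.73 ± 0.22 and TLN1, talin, at 0.54 ± 0.25 (adjusted p = 0.171, 0.159 and 0.301).

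Of 29 further matrix and matrix receptor genes, 0 passed, 17 were positive and 12 negative, and the median was 0.04. MATN2, a matrilin that bridges matrix filaments, measured 11369, 21769 and 29958 units in FID and 4710, 5479 and 4444 in control (2.00 ± 0.32, adjusted p = 0.0702, block fit adjusted p = 0.00240). THBS1, the matricellular protein thrombospondin-1, measured 7154, 12646 and 18036 units in FID and 38221, 37726 and 35006 in control (-1.65 ± 0.32, adjusted p = 0.0869, block fit adjusted p = 0.00444). Both kept their sign on 6 of 6 arrays with no overlap between the conditions. SDC1, the cell surface proteoglycan syndecan-1, lay at -1.05 ± 0.22 (adjusted p = 0.0981).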

How the data were processed

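The deposited scanner files hold raw spot intensity and local background intensity at 532 nm (Cy3) and 635 nm (Cy5), per the file headers. The authors also deposited log2 ratios, by a normalization not given in the sources used here. Compared with scanner values they ran as Cy5 over Cy3 (slopes 0.949 to 1.02), their centring stays unknown beyond medians of -0.0185 to -0.00285, and they served only as an alternative. With limma 3.58.1 in R 4.3.3, intensities were corrected by normexp (offset 50) after the 13 to 88 spots per array marked to be ignored were left out, then normalized by loess within arrays. Signs were turned on arrays with FID in Cy3 and dye swaps averaged, giving 3 ratios per probe, tested against 0 with lmFit and eBayes. A probe was tested where its intensity exceeded the 95th percentile of 153 negative control spots in FID or control on at least 4 of 6 arrays, and a gene stood on its tested probe of highest mean intensity. Between 51.2% and 86.7% of probes per array and channel exceeded that level. Symbols come from the platform annotation. All 76 were found in the RefSeq gene table. Positions are not printed, as the build behind the probes is not given in the sources used here.

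Members and lists were chosen with earlier results of these data known. Named were members past the threshold, the 3 largest ratios of each role, and the 9 proteoglycans and glycoproteins listed by name. In the pathway, stromal and granulosa lists, genes past the threshold or the 3 largest were named. The endothelial, blood and immune, and oocyte lists are given without single genes, except PTPRC and H1FOO, which were named after their values were seen. COL1A2, COL4A2, COL4A4, COL4A6, ITGA2, ITGA5, ITGA7, ITGB6, LAMA1 and LAMC1 were added after their values were seen, mostly as partner chains, and the other genes given single values complete their groups. Same-numbered arrays are dye swaps of 1 pair of RNAs, with a correlation of 0.608 within replicates. The smallest exact two-sided sign-flip p that 3 ratios allow is 0.25. The test was checked on simulated data. That simulation capped its noise below the members' median SD between replicates of 0.33, so it does not cover the more variable genes.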

Additional observations from a re-analysis of the deposited data

Results flagged for a closer look

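In 7 members the ratio of FID over control had one sign on all 3 arrays with FID in Cy5 and the opposite sign on all 3 arrays with FID in Cy3, and in each the dye term of the second fit had an adjusted p under 0.05 (limma). The mean log2 ratios with FID in Cy5 and in Cy3 were 0.19 and -1.39 for DCN (adjusted p of the dye term 0.00220), 0.69 and -0.59 for COL6A3 (0.00207), and -0.45 and 0.58 for COL23A1 (0.00220). They were -0.32 and 0.50 for COL9A1 (0.00694), 0.23 and -0.37 for COL4A6 (0.0133), -0.29 and 0.44 for COL13A1 (0.0346), and 0.28 and -0.24 for LAMB3 (0.0463). Their levels lay between 100 and 223 units in both conditions, and DCN exceeded background in FID on 3 of 6 arrays.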

How the results depend on the processing

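The processing decided whether members were called. Among 744 comparisons of 42 named members with their main values, 686 kept direction and side of the threshold, 22 gained a call, 7 lost one and 29 changed sign. Aquantile scaling between arrays is among these alternatives and cannot move a ratio. LUM stayed negative under all 18 alternatives, with adjusted p of 0.00219 to 0.249. Under 4 settings, namely with the marked spots kept, without background subtraction, with the authors' deposited ratios and with the mean local background, 0 members and 0 marker list genes were lower; limma then called 0 probes, while 7025 to 7472 had an unadjusted p under 0.05. Leaving out 1 replicate gave 0 lower members and 0 lower marker list genes, as limma then called 0 of the 32124 tested probes. Its unadjusted p was under 0.05 for 4863 to 6576 probes, and its adjusted p for LUM was 0.116 to 0.249. Fewer samples enter these fits. In the replicate block fit 7 members were higher and 6 lower, 1 and 10 pathway list genes, and 6 and 12 marker list genes. Normexp without an offset gave 3 lower members, 1 higher pathway list gene and 2 higher marker list genes. Restricting the test to probes detected in FID and control on every array gave a member median of 0.18, 1 higher pathway list gene and 1 higher marker list gene. The intensity trend gave 4 lower members, 1 higher and 1 lower pathway list gene and 2 higher marker list genes. Arrays with FID in Cy5 alone gave 1 higher member, 1 higher pathway list gene, and 2 higher and 4 lower marker list genes; those with FID in Cy3 alone gave 1 higher and 4 lower members, 2 and 3 pathway list genes, and 4 and 5 marker list genes. The median spot intensity gave 1 higher member, 1 higher and 1 lower pathway list gene and 2 higher marker list genes. Like the mean local background, it was chosen after seeing the data. Called higher and lower among all 12363 tested genes were 313 and 397 without the offset and 270 and 389 with the trend. With FID in Cy5 alone they were 353 and 445, and with FID in Cy3 alone 494 and 625. The median spot intensity called 360 and 445. Restriction to probes detected on every array called 251 and 289 of 8412 genes, and the replicate block fit 1093 and 1474 of 12363.

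The sign changed for these ratios, none of them called. With marked spots kept they were -0.05 for BGN, -0.02 for COL23A1 and 0.01 for COL4A6, and with median centring 0.00 for COL4A6, -0.15 for ITGA2 and -0.02 for ITGA7. With FID in Cy5 alone they were -0.29 for BGN, -0.29 for COL13A1, -0.45 for COL23A1, 0.23 for COL4A6, 0.19 for DCN, -0.01 for ITGA7 and 0.20 for NID1, and with FID in Cy3 alone -0.14 for COL27A1, -0.11 for COL4A4 and -0.25 for ITGA2. Leaving out each replicate in turn gave -0.91 to 0.11 for COL1A1, -0.27 to 0.40 for COL1A2, -0.42 to 0.71 for COL3A1, -0.08 to 0.74 for COL4A4, -0.13 to 0.00 for COL4A6, -0.05 to 0.25 for FN1, -1.03 to 0.32 for HSPG2, -0.21 to 0.34 for ITGA2, -0.51 to 0.73 for ITGA7, -0.65 to 0.18 for ITGB6 and -0.07 to 0.13 for BGN; the sign turned without replicate 1 in COL1A1, HSPG2 and ITGB6, without replicate 2 in COL4A6 and ITGA7, and without replicate 4 in the others. With the median spot intensity they were -0.09 for BGN and 0.13 for ITGB6. The causes were not tested. Signal near background limits the dim members, whose ratios are compressed.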
